A study of Bubalus bubalis with 6 samples.

Results

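The genes described here fold, check and export proteins in the endoplasmic reticulum (ER). They were chosen by symbol from a list of 50 names, of which 47 were matched in the gene table among 24616 listed genes. ERO1L on that list is the older symbol of ERO1A and was counted once, and DNAJB11 and TXNDC5 were not analysed here. All 47 genes reached the minimum for testing, a sum of 10 counts across the 6 samples, as did 15576 genes of the whole table.

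PolyA RNA-seq was performed on primary buffalo muscle stem cells (MuSCs) isolated from fetal longissimus muscle, to compare proliferation with differentiation. The 3 GM samples were cells proliferating in growth medium, and the 3 DM samples were cells differentiating after the change to differentiation medium, when myotubes form. The labels do not say whether samples came from separate animals or cultures, so the p-values below measure only the spread between these samples. All values are for bulk RNA, in which fewer cells of a type and less RNA per cell cannot be told apart.

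Secreted and membrane proteins enter the ER through the translocon while they are being made. Inside the lumen, chaperones bind the chain, disulfide isomerases and oxidases join its cysteines and prolyl isomerases turn its proline bonds, after which COPII vesicles carry folded cargo to the Golgi and KDEL receptors return escaped residents. Misfolded chains are sent back to the cytosol for degradation, and sensors such as IRE1 and ATF6 adjust the expression of this machinery through the unfolded protein response.

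Gene counts totalled 35615864 to 40305237 per sample. At an adjusted p under 0.05, 10 of 13 skeletal muscle markers were higher and 2 lower in DM samples. Of all tested genes, 31.6% were higher and 31.4% lower. The summed share of the muscle markers in gene counts rose from 0.333% ± 0.0331 (SD, n = 3) to 0.908% ± 0.191. All 11 tested fibroblast markers were also higher in DM samples, at 3.75% ± 0.0473 and 10.8% ± 1.17 of counts. Most of this share came from the collagen genes COL1A1, COL1A2 and COL3A1. Of the fibroblast markers, 5 also stand on the list of secreted matrix genes described below, and TCF21, a further fibroblast marker, was near 0 in all samples. The adipocyte, endothelial and blood cell lists summed to between 5.96 and 13.5 CPM (counts divided by library size times a constant, so that libraries of different depth compare) in every sample. Among fibroblast markers, mean CPM rose from 15287 to 44328 for COL1A1 but only from 575 to 859 for PDGFRA. The part of cell composition in the results below was not tested.

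DM replicate 3 stood apart from the other DM samples. For the gene counts of a pair of samples, chi-square divided by its degrees of freedom was 42.5 and 43.3 with this replicate, 12.2 between DM replicates 1 and 2 and 6.43 to 11.0 between GM samples. It was the lowest DM sample in 36 of the 47 ER genes and the highest in 3. It also had the highest share of skeletal muscle markers among DM samples, 1.13% against 0.768% and 0.832%, and the lowest share of fibroblast markers, 9.53% against 11.8% and 11.2%. The fibroblast share was again mostly of the collagen genes named above. Counts over all ER genes, and over chaperones, disulfide enzymes and reticulocalbins, are therefore given with and without DM replicate 3. Other counts are from all samples unless stated.

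Levels are CPM with library sizes scaled by TMM factors, and fold changes are DM over GM on the log2 scale, fitted with edgeR's quasi-likelihood test over all tested genes with Benjamini-Hochberg adjustment. Most ER genes differed between GM and DM samples, but by small amounts. Their share was no higher than among genes at like levels, given below. At an adjusted p under 0.05, 34 of 47 genes (72.3%) differed, against 63.0% of all tested genes, and 13 of them were higher and 21 lower in DM samples (all genes: 31.6% higher and 31.4% lower). With the further condition of an absolute log2 fold change above 1, 5 genes (10.6%) were called, 2 higher (DNAJB9 and ERN1) and 3 lower (MANF, PDIA4 and CRELD2), against 25.3% of all tested genes (15.0% higher and 10.3% lower). The ER genes are well expressed, and among the 8501 genes at or above the mean CPM of the lowest of them, 11.9, the shares were 73.9% at the adjusted p alone and 17.6% with the fold condition. The median log2 fold change was -0.09 over the ER genes, -0.09 over those 8501 genes and 0.03 over all tested genes.

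The 3 GM samples and 3 DM samples did not overlap in 38 of the 47 genes (80.9%), against 68.8% of all tested genes. The latter share includes genes at lower levels and was not counted at like levels, so it does not show a wider separation of the ER genes. When TMM was replaced by plain library size, the fold changes of all genes shifted by -0.097 in the median, and the counts at the adjusted p became 10 higher and 24 lower. Without DM replicate 3 they were 18 higher and 21 lower, with 2 called higher and 2 called lower.

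**Figure D1:**
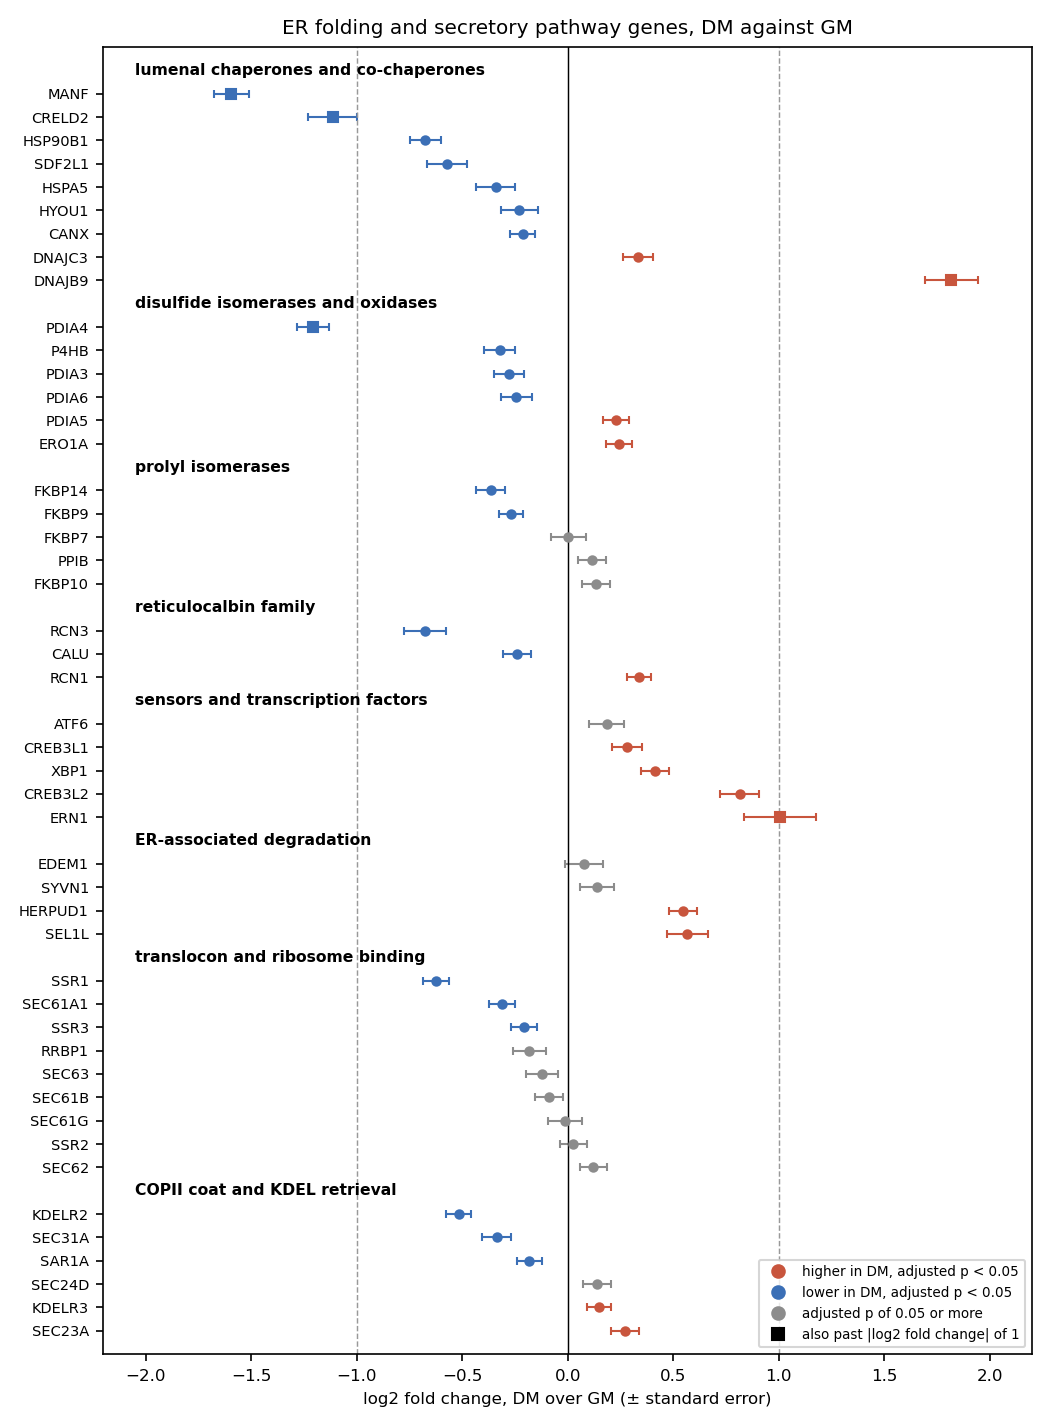
Log2 fold change of DM over GM samples (x axis, points with standard error bars, n = 3 per group) for the 47 ER genes, grouped by role on the y axis; colour gives the direction at an adjusted p under 0.05 and squares pass an absolute log2 fold change of 1. Chaperones and disulfide enzymes lie mostly to the left of 0, from -1.59 for MANF, while 3 of 5 prolyl isomerases lie to the right. All 9 sensors, factors and degradation genes also lie to the right, up to 1.01 for ERN1 (EDEM1 moved to -0.022 with library size alone).

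Among lumenal chaperones and their helpers, 7 of 9 genes were lower and 2 higher in DM samples, against 31.4% lower and 31.6% higher of all tested genes. HSP90B1 (GRP94), the ER member of the HSP90 family, was the chaperone gene with most counts in GM samples, and HSPA5 in DM samples. HSP90B1 stood at 1487, 1406 and 1436 CPM in GM samples and at 929, 969 and 813 CPM in DM samples. The groups did not overlap, and the log2 fold change was -0.68 (SE 0.073, adjusted p = 1.53e-05). HSPA5 (BiP), the main HSP70 of the lumen, fell from 1232 ± 21.3 CPM (SD, n = 3) to 972 ± 136 CPM, where DM replicate 3 at 815 CPM lay below the other DM samples at 1053 and 1047 CPM. Its log2 fold change was -0.34 (SE 0.093, adjusted p = 0.00793) and -0.22 without that replicate.

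MANF, a small secreted protein that binds BiP, had the largest decrease of all the ER genes. It was listed as ENSBTAG00000031797 on chromosome 22, positions 49946213 to 49950052, on a build that the table does not name. Its level was 247, 277 and 257 CPM in GM samples and 80.6, 96.5 and 81.8 CPM in DM samples. The log2 fold change was -1.59 (SE 0.083, adjusted p = 6.80e-08), a level 3.02 times as high in GM samples, and stayed between -1.67 and -1.54 whichever sample was left out.

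CRELD2 (ENSBTAG00000047801, chromosome 5, 120933369 to 120940333), another secreted ER stress gene, stood at 92.5, 106 and 98.7 CPM in GM samples and at 48.5, 52.1 and 37.0 CPM in DM samples. Its log2 fold change was -1.11 (SE 0.12, adjusted p = 1.03e-05). Without DM replicate 3 it was -0.97, which no longer met the fold condition. SDF2L1, which acts with BiP and its J proteins, fell by 0.57 on the log2 scale, HYOU1, a nucleotide exchange factor for BiP, by 0.23 and the membrane lectin chaperone CANX (calnexin) by 0.21. Of these, HYOU1 was close to the threshold (adjusted p = 0.0445) and lost it on leaving out any one of GM replicates 1, 2 and 3 or DM replicates 2 and 3 (log2 fold changes -0.26 to -0.12).

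Both chaperone genes that were higher encode J proteins, which drive the ATPase of BiP. DNAJB9 (ERdj4, ENSBTAG00000046588, chromosome 4, 59970936 to 59973819) had the largest increase of all the ER genes, from 11.2, 9.01 and 10.3 CPM in GM samples to 32.7, 42.4 and 32.2 CPM in DM samples. The groups were far apart, with a log2 fold change of 1.82 (SE 0.13, adjusted p = 5.18e-07), or 3.52-fold. DNAJC3 (P58IPK), at 109 ± 3.08 CPM in GM samples and 138 ± 10.8 CPM in DM samples, rose by 0.33 on the log2 scale (adjusted p = 0.00167).

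The disulfide isomerases and oxidases also moved in both directions, 4 lower and 2 higher of 6 (all tested genes: 31.4% lower and 31.6% higher). P4HB (PDI), which is both the main disulfide isomerase and a subunit of the collagen prolyl hydroxylase, had 2142, 2225 and 2170 CPM in GM samples and 1885, 1779 and 1561 CPM in DM samples. The groups did not overlap, and the log2 fold change was -0.32 (SE 0.074, adjusted p = 0.00306). PDIA4 (ERp72, ENSBTAG00000017143, chromosome 4, 112989514 to 113006466), an isomerase with an additional thioredoxin domain, fell further, from 563, 571 and 555 CPM to 257, 258 and 216 CPM. Its log2 fold change was -1.21 (SE 0.076, adjusted p = 2.51e-07) and lay between -1.24 and -1.12 with any one sample left out.

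PDIA3 (ERp57), the isomerase that works with the lectin chaperones, fell by 0.28 on the log2 scale and PDIA6 by 0.24, the latter with an adjusted p of 0.0587 without GM replicate 3 (log2 fold change -0.23) and a change of -0.16 without DM replicate 3. PDIA3 overlaps CATSPER2 on the opposite strand in the table (mean counts 30655 and 820), and the sources used here do not say whether counting used the strand. PDIA5 rose by 0.23 and ERO1A, the oxidase that recharges PDI, by 0.24. With library size alone neither of these 2 increases passed, at 0.13 (adjusted p = 0.0764) and 0.14 (adjusted p = 0.0686).

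Among 5 prolyl isomerases, 2 were lower and none was higher at the adjusted p (all tested genes: 31.4% lower and 31.6% higher). PPIB (cyclophilin B), the most abundant of them and a partner of the collagen-modifying complex, had 499.6, 533 and 532 CPM in GM samples and 589, 580.3 and 525 CPM in DM samples. The groups overlapped (log2 fold change 0.11, SE 0.065, adjusted p = 0.148); without DM replicate 3 the change was 0.17 (adjusted p = 0.0229), and with any other sample left out 0.085 to 0.13, which did not pass. FKBP14, a collagen-binding isomerase, was at 60.3, 59.0 and 57.0 CPM and then at 44.2, 48.5 and 44.1 CPM, without overlap (log2 fold change -0.37, SE 0.069, adjusted p = 0.00083).

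FKBP9 was also lower, by 0.27 on the log2 scale. FKBP10 (FKBP65), mutated in osteogenesis imperfecta, had a log2 fold change of 0.13 (adjusted p = 0.0986), which became 0.20 (adjusted p = 0.0148) without DM replicate 2 and 0.093 (adjusted p = 0.264) without DM replicate 1. FKBP7 had 40.0 ± 0.791 and 40.1 ± 4.31 CPM in the groups, and the sign of its change depended on the scaling (-0.09 with library size alone).

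The reticulocalbins, calcium-binding proteins of the secretory pathway, did not move together. RCN3, which had the highest count of the 3 in GM samples, was at 626, 713 and 650 CPM in GM samples and at 458, 441 and 346 CPM in DM samples. The log2 fold change was -0.68 (SE 0.10, adjusted p = 0.000165). CALU (calumenin) fell by 0.24 on the log2 scale, whereas RCN1 rose from 429 ± 11.1 to 543 ± 15.3 CPM (log2 fold change 0.34, SE 0.057, adjusted p = 0.000394). Over chaperones, disulfide enzymes and reticulocalbins together, 13 of 18 genes were lower and 5 higher. Of all tested genes, 31.4% were lower and 31.6% higher, and 73.9% passed in either direction at like levels. Directions were not counted at like levels, where the median log2 fold change was -0.09. These 3 groups leave out the 5 prolyl isomerases, of which 2 were lower and 3 did not pass. Without DM replicate 3, 6 chaperones, 4 disulfide enzymes and 2 reticulocalbins were lower, and 2, 2 and 1 higher. DM replicate 3 was the lowest DM sample in 15 of the 18.

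**Figure D2:**
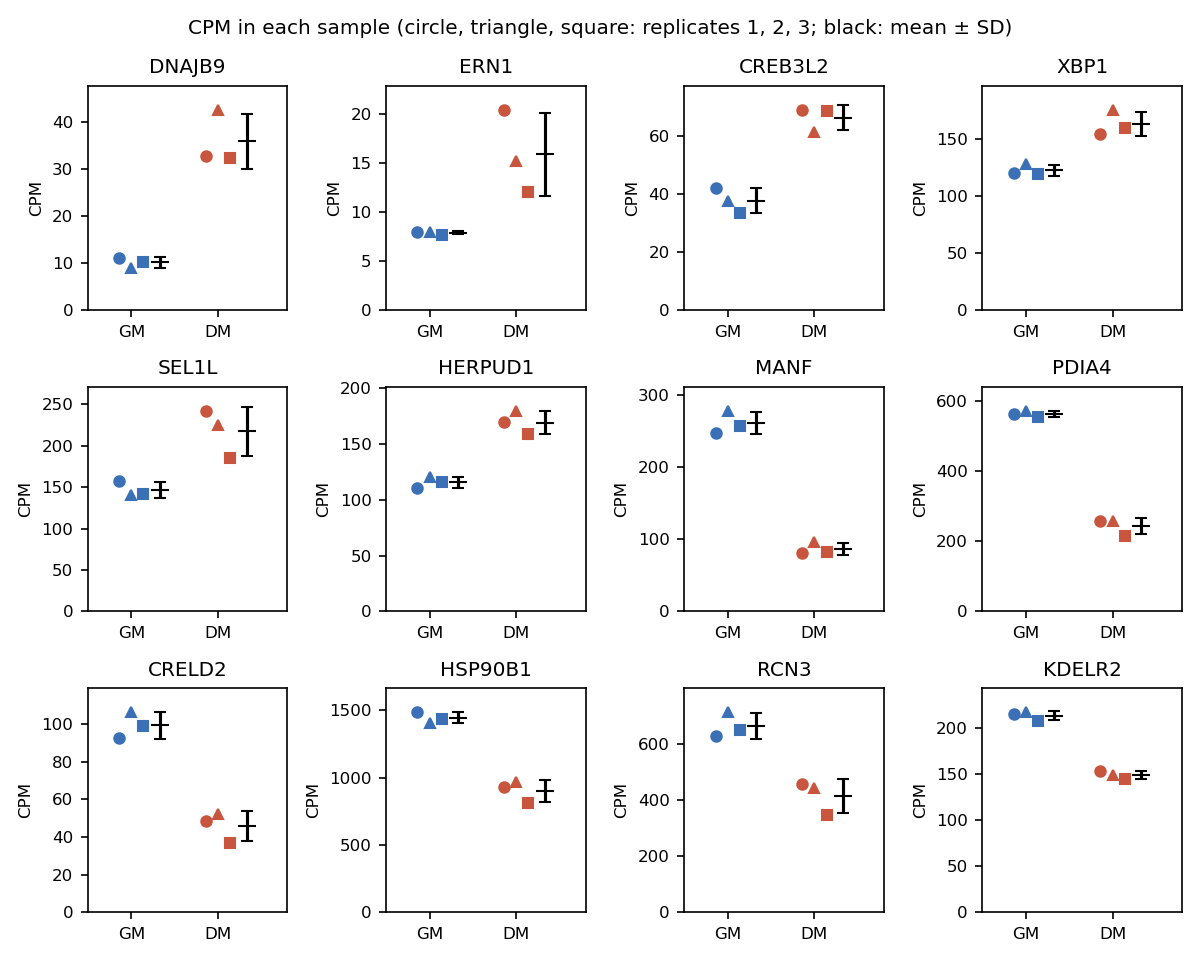
CPM in each of the 6 samples (y axis, starting at 0) for 12 ER genes, with circles, triangles and squares for replicates 1, 2 and 3 and black bars for the mean ± SD of each group (n = 3). The first 6 genes, DNAJB9 to HERPUD1, lie higher in DM samples and the last 6, MANF to KDELR2, lower. The 12 genes were picked with their values known, so the lack of overlap in every panel was fixed by the choice. Groups did not overlap in 38 of the 47 ER genes (80.9%) and in 68.8% of all tested genes.

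Of the 5 sensors and transcription factors, 4 were higher and none lower in DM samples, against 31.6% higher and 31.4% lower of all tested genes. ERN1 (IRE1, ENSBTAG00000016799, chromosome 19, 48924511 to 48971838), the sensor whose nuclease activates XBP1, had the lowest level per length of all the ER genes. Its CPM was 8.03, 7.98 and 7.73 in GM samples and 20.4, 15.3 and 12.0 in DM samples. The DM samples were all above the GM samples but spread widely, and the log2 fold change was 1.01 (SE 0.17, adjusted p = 0.000426). It sat at the fold condition, and ranged from 0.79 to 1.18 with any one sample left out. The call was lost without DM replicate 1 (0.79) or GM replicate 3 (0.99) and in the fit with the replicate number as a block (0.98). It was also lost with library size alone (0.91) and in the transcript table (0.99, from the same counts).

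XBP1, the factor that IRE1 splicing activates, was at 120.2, 129 and 119.7 CPM in GM samples and at 155, 176 and 160.2 CPM in DM samples (log2 fold change 0.41, SE 0.067, adjusted p = 0.00031). The counts cover the whole gene and do not separate its spliced and unspliced forms. ATF6, the sensor that is cut in the Golgi to release a transcription factor, had 66.9, 54.4 and 60.3 CPM and then 72.4, 67.0 and 66.9 CPM. The highest GM sample lay at the level of the lowest DM samples, and the change of 0.18 did not pass (SE 0.083, adjusted p = 0.0751), although it did without DM replicate 3 (0.21, adjusted p = 0.025) and without GM replicate 1 (0.26, adjusted p = 0.0254). Without GM replicate 2 it was 0.11 (adjusted p = 0.269).

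CREB3L1 (OASIS) and CREB3L2 (BBF2H7) are membrane-bound factors known for driving secretory and collagen genes in bone and cartilage. CREB3L1 stood at 420.5, 425 and 419.7 CPM in GM samples and at 566, 494 and 477 CPM in DM samples (log2 fold change 0.28, SE 0.072, adjusted p = 0.00564). CREB3L2 stood at 42.0, 37.5 and 33.5 CPM and then at 68.9, 61.4 and 68.5 CPM (log2 fold change 0.81, SE 0.091, adjusted p = 1.92e-05). Neither gene overlapped between groups, and with library size alone the change of CREB3L1 was 0.18 (adjusted p = 0.0326).

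ER-associated degradation had 2 of 4 genes higher and none lower, against 31.6% higher and 31.4% lower of all tested genes. SEL1L, the adaptor of the HRD1 ubiquitin ligase and the gene of this group with most counts and the largest change, had 158, 141 and 141 CPM in GM samples and 242, 225 and 185 CPM in DM samples. The groups were apart, with a log2 fold change of 0.57 (SE 0.096, adjusted p = 0.00042). HERPUD1, a stress-induced partner of the same ligase, rose from 116 ± 4.94 to 169 ± 10.4 CPM (0.55 on the log2 scale, adjusted p = 3.72e-05). SYVN1, which encodes HRD1 itself, and the mannosidase-like EDEM1 had log2 fold changes of 0.14 (adjusted p = 0.153) and 0.08 (adjusted p = 0.482, and -0.022 with library size alone). Without DM replicate 3 both passed, at 0.21 (adjusted p = 0.0263) and 0.18 (adjusted p = 0.0268), whereas without DM replicate 1 they were 0.074 (adjusted p = 0.423) and 0.030 (adjusted p = 0.808). EDEM1 was also at 0.037 without GM replicate 3, 0.044 without DM replicate 2 and 0.12 without GM replicate 2, none of which passed.

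For the translocon and the ribosome-binding proteins, 3 of 9 genes (33.3%) were lower and none higher. The lower share was near the 31.4% of all tested genes, of which 31.6% were higher. RRBP1, which binds ribosomes to the rough ER and had the most counts, was at 830.4, 881 and 806.5 CPM in GM samples and at 754, 659 and 806.4 CPM in DM samples. One sample of each group lay at the same level, and the change of -0.18 did not pass (SE 0.079, adjusted p = 0.066), though it did without DM replicate 3 (-0.24, adjusted p = 0.00447). Without DM replicate 2 the change was -0.090 (adjusted p = 0.258). SSR1 (TRAP alpha), a subunit of the complex beside the channel, fell from 459, 455 and 462 CPM to 299, 314 and 279 CPM (log2 fold change -0.62, SE 0.062, adjusted p = 7.52e-06).

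The channel subunit SEC61A1 fell by 0.31 on the log2 scale (adjusted p = 0.00115) and SSR3 by 0.21 (adjusted p = 0.011, and 0.0526 without GM replicate 3, at -0.19). The other subunits did not pass the test. SEC61B (-0.09, adjusted p = 0.258), SEC61G (-0.01, adjusted p = 0.898) and SSR2 (0.03, adjusted p = 0.739, and -0.072 with library size alone) had small changes, as did SEC62 (0.12, adjusted p = 0.123) and SEC63 (-0.12, adjusted p = 0.181). With library size alone, 6 of the 9 genes were lower at the adjusted p, among them RRBP1, SEC61B and SEC63.

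In the COPII coat and KDEL retrieval group, 2 of 6 genes were higher and 3 lower (all tested genes: 31.6% higher and 31.4% lower). SEC31A, the outer cage of the coat, had 290.2, 267 and 279.9 CPM in GM samples and 236, 223 and 204 CPM in DM samples (log2 fold change -0.34, SE 0.069, adjusted p = 0.00154). SEC23A, an inner coat subunit mutated in a craniofacial and bone disorder, rose by 0.27 on the log2 scale (adjusted p = 0.00418), with the table placing an unnamed gene of the opposite strand across it (mean counts 6389 and 372). Its partner SEC24D had a change of 0.14 (adjusted p = 0.0879, and 0.00989 without DM replicate 3, at 0.20), and of 0.11 to 0.17 with any other sample left out, which did not pass. The GTPase SAR1A fell by 0.18 (adjusted p = 0.024), and lost the threshold without GM replicate 1 or 2 or DM replicate 1 (-0.17 to -0.14); with library size alone it was -0.28.

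The KDEL receptors differed from each other in direction. KDELR2 was at 216, 218 and 208 CPM in GM samples and at 153, 149 and 145 CPM in DM samples (log2 fold change -0.52, SE 0.057, adjusted p = 1.74e-05). KDELR3 was at 153 ± 2.26 and 169 ± 1.45 CPM (0.15, SE 0.055, adjusted p = 0.0358). The second difference was small, and its adjusted p was above 0.05 without any one of GM replicates 1 to 3 or DM replicate 1 (0.14 to 0.16) and with library size alone (0.05).

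Levels were compared between genes per length, as the deposited RPKM. P4HB was the highest of the ER genes in both groups, with a mean RPKM of 930.3 in GM samples and 695 in DM samples. In GM samples HSPA5 (649), PPIB (609) and HSP90B1 (536) followed, and in DM samples PPIB (616), RCN1 (513) and HSPA5 (478). In all, 7 genes had a mean RPKM above 400 in GM samples and 4 in DM samples. The lowest in GM samples were ERN1 (2.88), DNAJB9 (5.34) and CREB3L2 (12.0), and in DM samples ERN1 (5.39), FKBP14 (15.0) and DNAJB9 (17.6).

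Within families, the balance between 2 members was read as the ratio of their RPKM in the same sample. These 6 pairs were chosen after their values were seen. An exact permutation test of each gave p of 0.1 or above. The smallest p it can give with 3 samples against 3 is 0.1, so no pair could pass and the test cannot decide. RCN3 to RCN1 went from 1.06 ± 0.0811 (SD, n = 3) in GM samples to 0.522 ± 0.0621 in DM samples; RCN1 was the higher of the pair in GM replicate 1 (0.973) and in all 3 DM samples. PDIA4 to PDIA5 went from 4.37 ± 0.14 to 1.61 ± 0.136 and KDELR2 to KDELR3 from 1.84 ± 0.0342 to 1.16 ± 0.0328. CREB3L1 to CREB3L2 went from 20.7 ± 2.32 to 14.2 ± 1.25, and FKBP14 to FKBP7 from 0.452 ± 0.0201 to 0.352 ± 0.0293. SEC24D to SEC23A, at 1.87 ± 0.028 and 1.71 ± 0.216, was the pair whose samples overlapped.

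**Figure D3:**
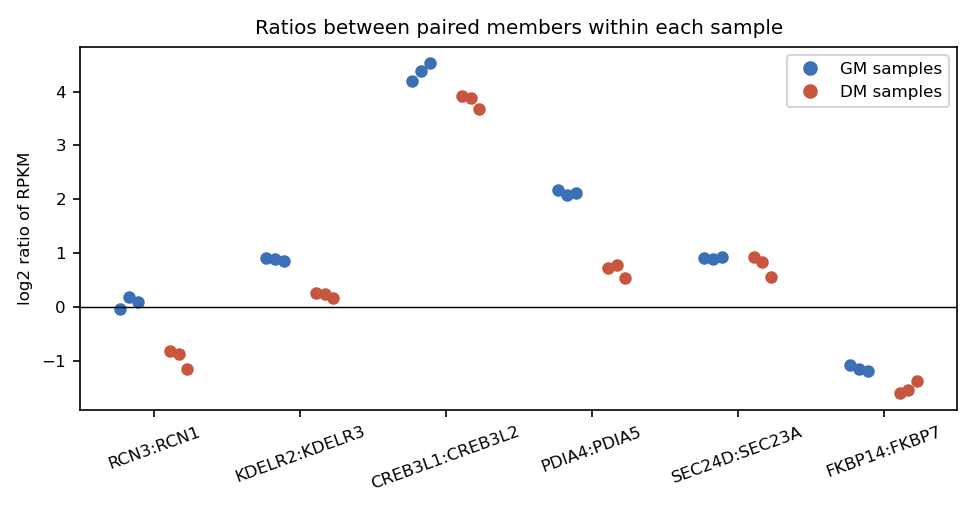
Log2 of the ratio of RPKM between 2 genes of a family (y axis) in each GM sample and each DM sample (1 point per sample, 6 pairs on the x axis). The ratios of RCN3 to RCN1 fall from near 1 in GM samples (0 on the axis) to below it in DM samples, and only SEC24D to SEC23A has overlapping samples.

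The 47 genes together took 1.69%, 1.68% and 1.66% of gene counts in GM samples and 1.36%, 1.39% and 1.24% in DM samples. All 3 DM samples were below the GM samples, at a mean of 1.33% ± 0.0757 against 1.68% ± 0.0125. Without the 50 genes of highest count, of which 1 is an ER gene, the means were 1.78% and 1.60%, so the difference between groups was smaller. Chaperones took 0.449% and then 0.308%, and disulfide enzymes 0.433% and then 0.313%. Sensors and factors took 0.0673% and then 0.0799%.

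The genes of secreted matrix proteins went the other way. Of 20 such genes, 16 were higher and 3 lower in DM samples at the adjusted p, and 8 were called higher and 2 lower with the fold condition. Of all tested genes, 31.6% were higher and 31.4% lower, and 15.0% and 10.3% with the fold condition. Their summed share of gene counts was 7.94% ± 0.221 in GM samples and 18.0% ± 0.9 in DM samples. Decorin (DCN) rose most, from 447 ± 15.7 to 2311 ± 608 CPM, where DM replicate 3 at 1614 CPM was the lowest DM sample. Thrombospondin 1 (THBS1) fell most, from 4725 ± 336 to 764 ± 37.3 CPM. Of 12 genes of enzymes and partners that modify collagen, 7 were higher and 2 lower, none past the fold condition. Without DM replicate 3, 9 were higher and 2 lower.

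**Figure D4:**
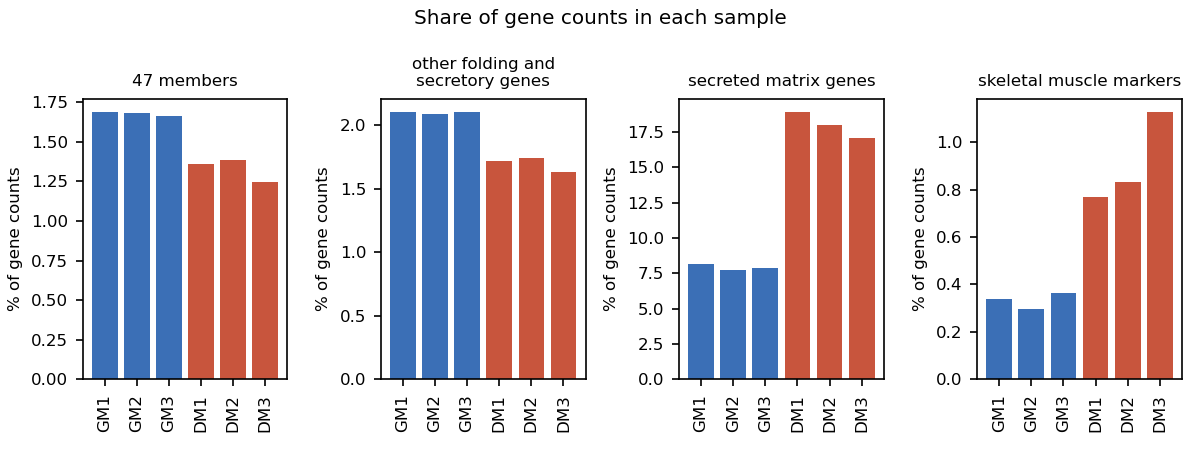
Percent of all gene counts in each of the 6 samples (y axes start at 0 and differ in scale) for the 47 ER genes, the other folding and secretory genes, the secreted matrix genes and the skeletal muscle markers. The first pair of lists is lower in all DM samples (ER genes 1.24% to 1.39% against 1.66% to 1.69%), while matrix genes and muscle markers are higher.

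Beyond the 47 genes, 143 further genes of the same pathway were tested, leaving out matrix and collagen-modifying genes. Of these, 35 were higher and 66 lower in DM samples at the adjusted p, and 6 were called higher and 3 lower with the fold condition. The 101 genes that passed the adjusted p (70.6%) compare with 63.0% of all tested genes and 73.9% at the levels of the ER genes, and the 9 called (6.29%) with 25.3% and 17.6%. The median log2 fold change was -0.15, and their summed share of counts was 2.10% ± 0.00733 in GM samples and 1.70% ± 0.0596 in DM samples. The 9 called genes were spread over 4 of the lists. Counts per list below compare with 31.6% higher and 31.4% lower of all tested genes.

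Among 30 other folding genes, 7 were higher and 14 lower. QSOX1, a secreted disulfide oxidase, rose from 50.5 ± 0.984 to 222 ± 27.3 CPM (log2 fold change 2.13, SE 0.088, adjusted p = 1.66e-08). CLGN, a calnexin relative known from the testis, fell most on the log2 scale (-1.66, SE 0.51, adjusted p = 0.0157) but on 28 counts or fewer per sample. CALR (calreticulin), the soluble lectin chaperone, was the other called gene, and is named here after its values were seen. It fell from 2036 ± 25.4 to 1014 ± 28.9 CPM (log2 fold change -1.01, SE 0.057, adjusted p = 1.21e-07). Without DM replicate 3, 1 gene of this list was called lower in place of 2.

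Among 18 other stress sensors and effectors, 8 were higher and 4 lower. CREBRF, a regulator of CREB3 factors, had the largest increase, from 1.37 ± 0.213 to 8.58 ± 0.454 CPM (log2 fold change 2.65, adjusted p = 3.57e-07). The other called genes were DDIT3 (CHOP, 1.31) and TRIB3 (1.07), both effectors downstream of ATF4. DDIT3 overlaps MARS on the opposite strand, which had the higher mean count, 7968 against 1986. Whether counting used the strand is not given, and the part of MARS reads in the DDIT3 counts was not tested. ATF4 itself had 601 ± 16.6 and 601 ± 29.4 CPM, and EIF2AK3 (PERK) rose by 0.45 on the log2 scale without reaching the fold condition. With library size alone, 2 genes of this list were called higher in place of 3. DDIT3, TRIB3, ATF4 and EIF2AK3 were named after their values were seen.

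Among 27 genes listed as other degradation factors, 9 were higher and 12 lower. The lower genes include TRAM1 (log2 fold change -0.16), which was placed on this list although it is a translocon protein. OS9, a lectin that hands misfolded glycoproteins to SEL1L, was called higher (123 ± 2.05 to 294 ± 19.9 CPM, log2 fold change 1.26) and was named after its values were seen. SEL1L3 was the other called gene, with no GM sample above 1 count and 10 to 15 counts in DM samples. For targeting, signal peptidase and oligosaccharyltransferase, 2 of 23 genes were higher and 14 lower, none past the fold condition.

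Of 31 other COPII, cargo receptor and exit site genes, 4 were higher and 18 lower, and 7 and 16 without DM replicate 3. TMED1, a p24 cargo receptor, was the called gene of this list, at 130.3 ± 6.6 CPM in GM samples and 51.8 ± 1.7 CPM in DM samples (log2 fold change -1.33, SE 0.066, adjusted p = 5.05e-08). Of 14 COPI coat and retrieval genes, 5 were higher and 4 lower, none past the fold condition.

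In the deposited transcript table each of the 47 genes had 1 mRNA, and 46 of these had the sign of their gene. The largest difference between the log2 fold changes of a gene and its mRNA was 0.0194. Of the mRNAs, 34 passed the adjusted p, against 64.6% of all tested mRNAs, and 1 was called higher and 3 lower, against 25.6% in either direction. Each of these mRNAs had the same counts as its gene in every sample, so the agreement was fixed in advance. The small differences come from scaling and fitting over the whole transcript table, and this is not an independent measurement.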

How the data were processed

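PolyA RNA-seq tables of 3 GM and 3 DM samples of buffalo MuSCs were used, grouped by the labels. The deposited counts are raw whole numbers per gene or mRNA transcript, made by the authors by alignment with HISAT2 and counting, without normalization. The authors computed the deposited RPKM values from those counts by scaling to transcript length and to the summed counts of the sample. The study's methods name a buffalo genome, while the tables list cattle Ensembl identifiers and positions and name no build. The submitters' processing notes list Bowtie 0.12.2 and the mouse builds mm8 and mm9, which match neither. The counting tool is not given in the sources used here. The deposited lists of differential features hold the authors' log2 fold changes, p-values and q-values and were not used, nor were the ncRNA tables. No sample column was left unmapped.

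Genes with at least 10 counts in total were fitted in R 4.3.3 with edgeR 4.0.16 (TMM, glmQLFit and glmQLFTest, 2 groups, no covariate), with Benjamini-Hochberg adjustment over all tested genes, and were called at an adjusted p under 0.05 and an absolute log2 fold change above 1, the thresholds of the study's methods. TMM factors were 1.03 to 1.04 in GM and 0.948 to 0.983 in DM samples. Levels are TMM-scaled CPM. The fit was tested on simulated data. Counts of replicates differed by more than sampling noise. Each sample was counted as 1 replicate, although this spread does not show that samples came from separate animals or cultures. Deviations of same-numbered GM and DM samples from their group means correlated at -0.0064, -0.055 and -0.0084. These values show no pairing by replicate number but cannot exclude it, because the labels do not give the origin of the samples.

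The ER genes, their role groups, the pathway lists and the markers were chosen with earlier results of these data known. Values in every sample are given for called ER genes, the sensors and factors, and the genes of highest CPM and of largest change in each role group; from each pathway list the called genes of largest rise and fall are named. Alternatives were DESeq2 1.42.0, its size factors, library size alone, other filters on low counts, a replicate block, leaving out each sample, and the transcript table. Sequences of these genes were not used here.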

Additional observations from a re-analysis of the deposited data

How the results depend on the processing

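Over 47 ER genes and 13 alternatives, 561 of 611 fold changes kept their direction and their side of the adjusted p of 0.05, 22 fell below the threshold, 16 came past it and 12 changed sign, and 27 genes kept direction and side throughout. The sign changes were in genes with changes near 0. FKBP7 had -0.094 with library size alone, -0.0012 with the replicate block and -0.046 to 0.096 with 1 sample left out. SEC61G had 0.043 with the study's RPKM filter (1 or more in over 50% of samples) and -0.073 to 0.038 with 1 sample left out. With library size alone EDEM1 had -0.022 and SSR2 -0.072. The cause was not tested.

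The number of ER genes called higher was 1 instead of 2 with library size alone, with the replicate block and in the transcript table, and 1 to 2 with 1 sample left out, ERN1 being the gene lost. The number called in either direction was 4 to 5 and that called lower 2 to 3 with 1 sample left out. At the adjusted p alone 30 to 39 genes passed with 1 sample left out, 12 to 18 higher and 18 to 21 lower. With library size alone 10 were higher and 24 lower. With the replicate block 12 were higher and 21 lower, and with the RPKM filter 18 and 19. DESeq2 gave 13 and 21, as edgeR did. Without the 50 genes of highest count the share of counts on ER genes was 1.78% in GM and 1.60% in DM samples. With library size alone, and without DM replicate 3, 1 of the other degradation factors was called lower, against 0. Standard errors of 0.055 to 0.17 on the log2 scale limit what 3 samples a group can show. The results with the counts per list and without DM replicate 3, the background at like levels and the ratios between family members were added after seeing the data.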
